A study of Mus musculus with 7 samples.

Results

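Txnip, Arrdc4, Mlxipl, Mlxip and Mlx, the genes of the glucose-sensing ChREBP and MondoA axis, were followed on arrays of MIN6 cells, a mouse insulinoma line that keeps many traits of pancreatic beta cells. The members were chosen by accession: every non-control probe whose deposited accession is a RefSeq transcript of one of these 5 genes. That gave 10 probes of the 56605 on the array, 2 for each gene, and the 5 genes are among 22911 with a symbol. One group held 4 samples of MIN6 cells kept for 3 days with Maidong polysaccharide extract (MPE), and the other held 3 samples kept for 3 days with phosphate-buffered saline (PBS) as vehicle. Both groups were grown in DMEM with serum, antibiotics and 2-mercaptoethanol, and neither the glucose content of the medium nor the MPE concentration used for the arrays is given in the labels, which list concentrations up to 50 μg/mL for the culture experiments. Separate cultures are not named for the replicates, so the spread behind every p-value may be technical.

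ChREBP (gene Mlxipl) and MondoA (gene Mlxip) are transcription factors that respond to glucose 6-phosphate and other hexose phosphates. Each binds DNA as a heterodimer with MLX at carbohydrate response elements, which are pairs of E-box-like repeats set a short distance apart. Their best-known shared targets are Txnip, whose product binds and inhibits thioredoxin and lowers glucose uptake, and Arrdc4, an alpha-arrestin related to TXNIP that also lowers glucose uptake. In beta cells Txnip is among the genes most strongly induced by glucose, and its excess is linked to beta-cell death.

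The promoters of the 2 targets are shown because E-box repeats and CCAAT boxes are the elements through which glucose acts on Txnip. Sequences are from RefSeq on GRCm38.p6, cover the 250 bases before the annotated start and are written 5′ to 3′ on the gene's strand. Txnip lies on the plus strand at chr3:96557707-96557956, and Arrdc4 lies on the minus strand at chr7:68749239-68749488. Capitals mark the E-box-like CACGAG pair of Txnip, the single CACGTG of Arrdc4 and CCAAT boxes, which read ATTGG on the other strand.
Txnip: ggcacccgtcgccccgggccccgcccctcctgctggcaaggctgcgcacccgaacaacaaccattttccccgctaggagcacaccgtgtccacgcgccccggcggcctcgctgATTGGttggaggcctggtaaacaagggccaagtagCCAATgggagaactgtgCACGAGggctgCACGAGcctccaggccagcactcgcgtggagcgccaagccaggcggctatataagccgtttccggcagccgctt
Arrdc4: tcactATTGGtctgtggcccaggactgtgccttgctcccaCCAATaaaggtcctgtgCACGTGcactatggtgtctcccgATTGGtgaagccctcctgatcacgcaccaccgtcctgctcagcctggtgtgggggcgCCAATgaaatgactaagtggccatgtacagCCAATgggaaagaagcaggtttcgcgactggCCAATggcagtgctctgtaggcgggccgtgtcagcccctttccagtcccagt
The Txnip window held the pair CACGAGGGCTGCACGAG, with its first base 85 bases before the start and a spacer of 5 bases, and 2 CCAAT boxes, at 137 and 102 bases before the start. Written as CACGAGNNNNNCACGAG and searched on both strands, this pair was found in 1 of 32851 promoter windows of that length (0.00304%), which is Txnip itself, since the letters were taken from it. The Arrdc4 window held 1 perfect E-box, CACGTG, at 193 bases before the start, and 6 CCAAT boxes. Over all windows and both strands, 6.02% held CACGTG and 33.8% held CCAAT. Among the other members, Mlx had CACGTG at 40 bases before its start, the more upstream of 2 annotated Mlxipl starts had it at 98 bases, and the Mlxip window did not hold these letters. The CACGTG count is a description of letters and says nothing of binding.

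Levels below are log2 processed intensities relative to the 75th percentile of all non-control probes on the same array, so a value of 0 is that percentile. Values of different probes are not on 1 scale and are compared only between arrays. Between 27944 and 28514 probes per MPE array and between 29501 and 30122 per vehicle array were well above background, and the lowest signal counted as such was 20.6 to 24.4 on MPE arrays and 12.6 to 15.5 on vehicle arrays. No spot was saturated. The correlation across probes between arrays was 0.991 to 0.994 within MPE, 0.995 to 0.997 within vehicle and 0.990 to 0.995 between the groups. All 7 arrays lay on 1 slide, the MPE arrays in row 2 and the vehicle arrays in row 1, and an effect of the slide row cannot be told apart from one of treatment. The 12 beta-cell markers on the list were well above background on all 7 arrays. Of 20 markers of other cell types, 9 were well above background on no array, among them Hhex, Cpa1, Sox9, Col1a1 and Pdgfrb. Gcg, Irx2, Sst, Ppy, Cela2a, Cd68 and Itgam were well above background on all 7. The other 4, Krt19, Pecam1, Cdh5 and Ptprc, were so on 1 array at most.

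Of the 10 member probes, 9 were well above background on all 7 arrays and were tested. The remaining probe, A_66_P102574 of Mlxip, was well above background on none of the arrays and is not used further. In the comparison of MPE with vehicle in MIN6 cells, 5 of the 9 probes had higher and 4 had lower mean levels with MPE. None of the 9 passed limma's test at an adjusted p of 0.05, and 1, that of Mlxip, had an unadjusted p under 0.05, as did 4.15% of all probes tested. Over all 28874 probes tested, 3 passed (0.0104%): that of Olfr867 was higher with MPE, and that of Wdsub1 and a probe with no symbol were lower. The only member probe whose MPE and vehicle levels did not overlap was that of Mlxip.

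Txnip, the glucose-induced thioredoxin inhibitor, did not pass the test. Its brighter probe, A_66_P131361 (chromosome 3), had levels of 2.84, 2.76, 2.50 and 2.42 on the 4 MPE arrays and of 2.63, 2.72 and 2.42 on the 3 vehicle arrays. The vehicle values lay inside the MPE range, and the processed intensities behind them were 1970 to 2642 with MPE and 2003 to 2197 with vehicle. The means were 2.63 ± 0.20 with MPE (SD, n = 4) and 2.59 ± 0.15 with vehicle (SD, n = 3). The log2 difference, MPE minus vehicle, was 0.04 (SE 0.13, limma adjusted p = 1.00), which is 1.03 times vehicle with a 95% interval of 0.834 to 1.27. It was -0.03 when each array was scaled to its median, so the sign depended on the scaling. No direction of Txnip with MPE could therefore be read from this probe.

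The dimmer Txnip probe, A_55_P2006255, behaved differently from the brighter one. It had levels of -2.19, -2.26, -2.02 and -2.09 on the MPE arrays and of -1.98, -1.85 and -2.18 on the vehicle arrays. The groups overlapped, and the difference was -0.14 (SE 0.10, limma adjusted p = 1.00), or 0.910 times vehicle with an interval of 0.778 to 1.06. Across the 7 arrays the levels of the 2 Txnip probes correlated at r = -0.08, although both carry the same accession. The processed intensity of this probe was 80.2 to 104 with MPE and 82.1 to 92.5 with vehicle. The results below on Txnip rest on the brighter probe.

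Arrdc4, the arrestin relative of Txnip, did not pass the test either. Its brighter probe, A_55_P2504175 (chromosome 7), had levels of -0.23, -0.29, -0.58 and -0.65 with MPE and of -0.26, -0.58 and -0.67 with vehicle. The groups overlapped almost fully, with a difference of 0.06 (SE 0.14, limma adjusted p = 1.00), or 1.05 times vehicle with an interval of 0.827 to 1.32. Scaling each array to its median gave a difference of -0.00. The other probe, A_66_P122074, had levels of -0.19, -0.23, -0.68 and -0.90 with MPE and of -0.28, -0.43 and -0.82 with vehicle. Its difference was 0.01 (SE 0.21), and its interval, 0.710 to 1.42 times vehicle, was the widest among the members. The 2 Arrdc4 probes had high and low levels on the same arrays, with r = 0.92 between them.

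Mlxipl encodes ChREBP, the glucose sensor of the axis in beta cells and liver. Its brighter probe, A_55_P2119957 (chromosome 5), had levels of 5.62, 5.76, 6.06 and 5.82 with MPE and of 5.75, 5.62 and 5.82 with vehicle. The difference of 0.08 (SE 0.11, limma adjusted p = 1.00) was 1.06 times vehicle, with an interval of 0.886 to 1.27, and the groups overlapped. The dimmer probe, A_55_P2045158, had levels of 0.38, 0.24, 0.64 and 0.68 with MPE and of 0.47, 0.57 and 0.75 with vehicle. Its difference ran the other way, at -0.11 (SE 0.13, limma adjusted p = 1.00), and the probes correlated at r = 0.44.

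Mlxip, the gene of MondoA, was the only member whose groups did not overlap. Its probe A_51_P246727 (chromosome 5) had levels of -0.92, -0.97, -0.71 and -0.68 on the MPE arrays and of -1.22, -1.15 and -1.05 on the vehicle arrays. All 4 MPE values lay above all 3 vehicle values, with means of -0.82 ± 0.15 with MPE (SD, n = 4) and -1.14 ± 0.08 with vehicle (SD, n = 3). The difference of 0.32 (SE 0.09, 95% interval 0.09 to 0.54) was 1.25 times vehicle (1.07 to 1.45). Its unadjusted limma p was 0.0120 and its adjusted p over all probes was 1.00, so it failed the correction. Among all probes tested, 1.28% had MPE values wholly above the vehicle values and 0.81% were higher at an unadjusted p under 0.05. The Mlxip difference lay between 0.25 and 0.37 in the 21 alternative settings, with adjusted p from 0.0685 to 1.00. The lowest came with no filter on dim probes, where 11899 probes were called, and every other setting gave 0.524 or more.

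This Mlxip probe sits in row 2 of the array's 384 rows of spots. Among the 1328 tested probes of rows 1 to 16, 4.14% had MPE values wholly above the vehicle values, and their median difference was 0.03, against -0.01 over all probes. Of the 41 tested probes within 5 rows and columns of it, 27 were higher with MPE, with a median difference of 0.04, and 1 had MPE values wholly above vehicle. Olfr867 lay in row 3 of the array and was well above background on 4 MPE arrays and 0 vehicle arrays (limma adjusted p = 0.00534). The brighter Mlx probe lay in row 3 as well and differed by -0.03. Wdsub1 lay in row 381 and was well above background on 0 MPE arrays and 3 vehicle arrays (adjusted p = 0.0107). The part of the position on the array in the Mlxip difference was not tested. The immune marker Itgam had lower levels with MPE, at 3.97, 3.82, 3.89 and 4.00, against 4.39, 4.35 and 4.07 with vehicle (difference -0.35, unadjusted limma p 0.00666, adjusted p = 1.00). Cd68, the other measured immune marker, differed by 0.10 (unadjusted limma p 0.327). Ptprc, also on the immune list, was well above background on 1 array at most and was not tested. For the 7 measured markers of other cell types, summed relative levels ranged from 64.0 to 71.8 with MPE and 69.5 to 72.6 with vehicle. For the 12 beta-cell markers the sums were 3196 to 3635 with MPE and 3338 to 4157 with vehicle. Such sums add probes that are not on 1 scale, and that of the other cell types mostly follows Gcg, Sst and Itgam. The part of these markers in the Mlxip result was not tested. In bulk samples fewer cells of a type and less RNA per cell cannot be told apart.

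Mlx, the shared dimerization partner, had the smallest within-group SD among the tested member probes, 0.09 on the log2 scale. Its brighter probe, A_51_P261443 (chromosome 11), had levels of 2.64, 2.65, 2.69 and 2.71 with MPE and of 2.60, 2.85 and 2.66 with vehicle. The MPE values lay within the vehicle range, and the difference was -0.03 (SE 0.07, limma adjusted p = 1.00), or 0.977 times vehicle, with an interval of the log2 difference of -0.20 to 0.14. The dimmer probe, A_66_P117739, had levels of -2.28, -2.38, -2.30 and -2.24 with MPE and of -2.25, -2.09 and -2.36 with vehicle. Its difference of -0.06 (SE 0.08) had an interval of 0.844 to 1.08 times vehicle, and its arrays overlapped too.

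**Figure D1:**
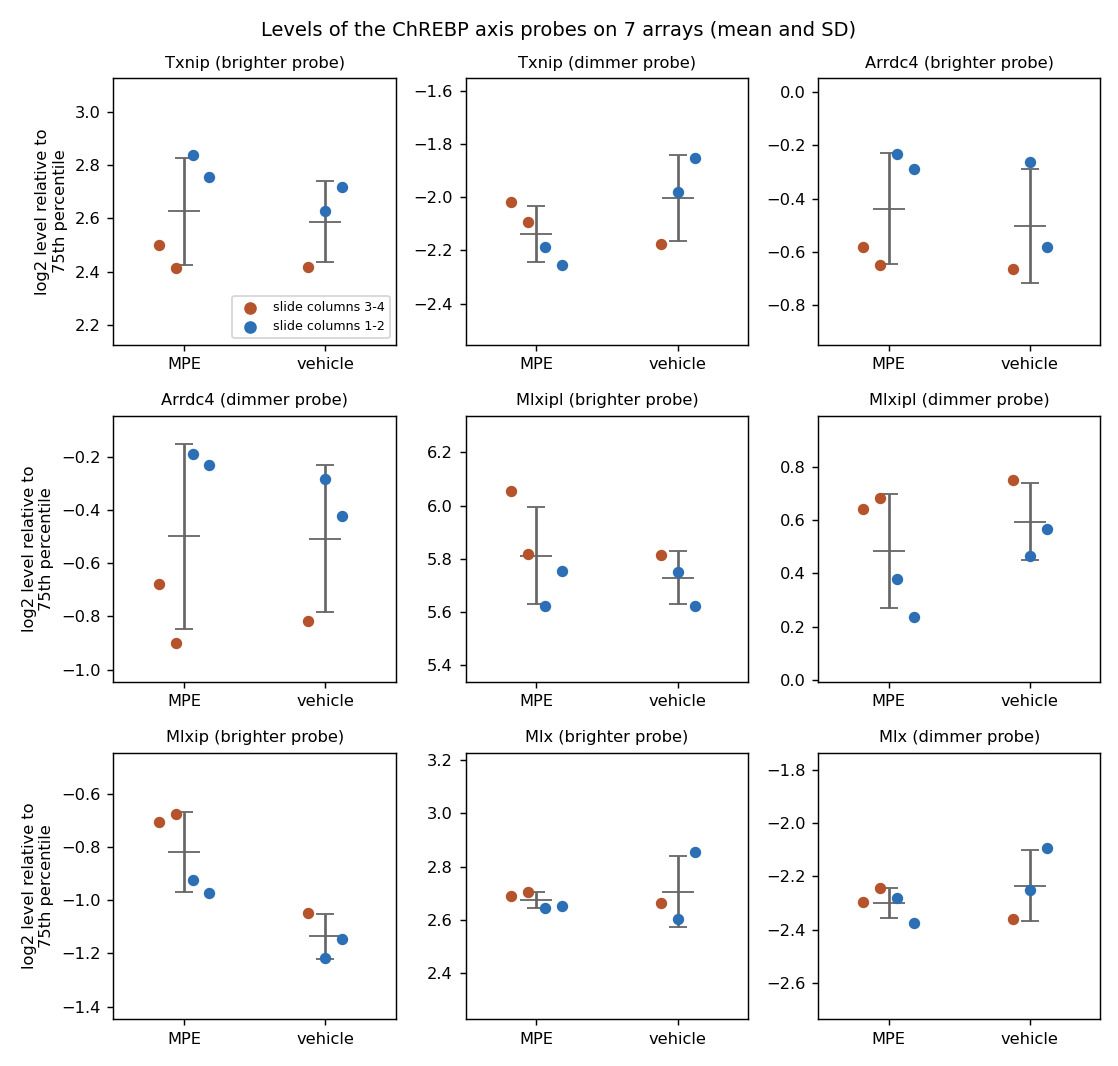
Log2 level relative to the 75th percentile of each array (vertical axes, each spanning 1 log2 unit) for the 9 tested probes, with 4 MPE arrays on the left and 3 vehicle arrays on the right of each panel. Points are arrays, horizontal marks and bars are mean ± SD, and colours give the slide columns. Only in the Mlxip panel do all MPE points lie above all vehicle points, and in the panels of the brighter Txnip probe and of both Arrdc4 probes the points of slide columns 3-4 lie below those of columns 1-2, in the brighter Arrdc4 probe by less than can be seen.

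The spread between arrays of the same group was large for the brightness in 1 of the 2 Txnip probes and in both probes of Arrdc4 and of Mlxipl. The within-group SD of the brighter Txnip probe was 0.18 on the log2 scale, above 92.1% of the probes of like brightness (1 of 5 bins of equal size), and that of the dimmer Txnip probe was 0.13, above 27.8% of its bin. For the 2 Arrdc4 probes it was 0.21 and 0.32, above 86.7% and 96.3% of their bins, and for the Mlxipl probes 0.15 and 0.19, above 92.4% and 83.0%. Mlxip (59.4%) and both Mlx probes (51.3% and 11.4%) were not among the more variable probes. The median within-group SD over all probes was 0.13.

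With a term for the arrays' position across the slide in the fit, the percentile was 34.3 for the brighter Txnip probe, 73.7 and 57.6 for the Arrdc4 probes, and 93.2 and 31.7 for the Mlxipl probes. MPE replicates 3 and 4 and vehicle replicate 3 lay in slide columns 3 and 4, and MPE replicates 1 and 2 and vehicle replicates 1 and 2 lay in columns 1 and 2. The columns therefore cannot be told apart from the replicate numbers, nor from anything else in which arrays 3 and 4 differed from 1 and 2. A comparison of columns 3-4 with columns 1-2, with treatment in the same limma fit, was added after the values were seen. Its p-values are therefore descriptive, also where a probe is said to have passed. In it 452 of 28874 probes passed (1.57%), 312 higher and 140 lower (0.485%), and 25.5% had an unadjusted p under 0.05. The count was 2 to 229 with any 1 array left out and 2 with no filter on dim probes. Of the 9 member probes, 1 passed, in the lower direction. At an unadjusted p under 0.05, 3 member probes were lower, against 13.7% of all probes, and 2 were higher, against 11.8%.

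Both targets had lower levels on columns 3-4. The brighter Txnip probe had 2.50, 2.42 and 2.42 on columns 3-4 and 2.84, 2.76, 2.63 and 2.72 on columns 1-2. These values did not overlap, as was the case, in the lower direction, for 15.6% of all probes. The difference was -0.30 (SE 0.05), or 0.810 times with an interval of 0.738 to 0.889, at an unadjusted limma p of 0.00150 and an adjusted p of 0.0553. It was -0.34 within MPE and -0.25 within vehicle. The adjusted p of Txnip thus stood outside the threshold. It was inside in 5 of 17 alternative settings, over which the difference ranged from -0.38 to -0.25. With any 1 array left out the adjusted p was farther outside, at 0.0802 to 0.157, and with no filter on dim probes it was 0.163.

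The Arrdc4 probe A_66_P122074 was the one member probe that passed in this comparison, which was added after the values were seen. It had -0.68, -0.90 and -0.82 on columns 3-4 and -0.19, -0.23, -0.28 and -0.43 on columns 1-2, again without overlap. The difference of -0.53 (SE 0.08, limma adjusted p = 0.0465) was 0.692 times, with an interval of 0.608 to 0.786, and it was -0.58 within MPE and -0.46 within vehicle. The call was lost in 8 of 16 alternative settings, namely with no filter on dim probes (adjusted p = 0.153) and on the omission of any 1 of the 7 arrays (0.0539 to 0.138), and the lowest adjusted p over the settings was 0.0032. The Arrdc4 probe A_55_P2504175 differed by -0.31 (SE 0.09, adjusted p = 0.103), and its nearest values on the 2 sides were both -0.58. The dimmer Txnip probe showed no such difference (-0.00, SE 0.10).

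The 2 sensors had higher levels on columns 3-4. The brighter Mlxipl probe had 6.06, 5.82 and 5.82 on columns 3-4 and 5.62, 5.76, 5.75 and 5.62 on columns 1-2, a difference of 0.20 (SE 0.08, limma adjusted p = 0.198). The other Mlxipl probe differed by 0.31 (SE 0.06, adjusted p = 0.0635), with 0.64, 0.68 and 0.75 on columns 3-4 and 0.38, 0.24, 0.47 and 0.57 on columns 1-2. Neither passed, although neither overlapped between the columns, as 11.6% of all probes did not in that direction. Mlxip differed by 0.21 (SE 0.05, adjusted p = 0.0845) with overlapping values, and the brighter Mlx probe by 0.00 (SE 0.07). With the columns in the fit, the MPE difference of Mlxip was 0.28 (SE 0.05, unadjusted p 0.00157, adjusted p = 0.608), 0.36 within columns 3-4 and 0.23 within columns 1-2. In the same fit the MPE difference of Txnip was 0.09 (SE 0.05, adjusted p = 0.942), and that of the dimmer Mlxipl probe was -0.16 (SE 0.06, unadjusted p 0.0407, adjusted p = 0.838).

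**Figure D2:**
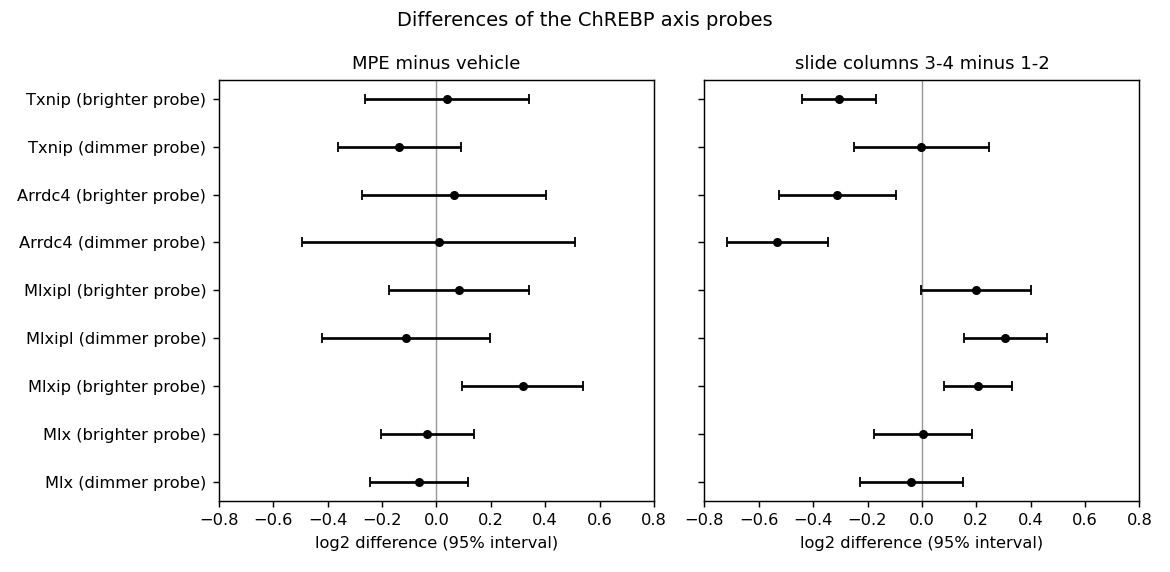
Log2 difference (horizontal axes) of the 9 tested probes for MPE minus vehicle on the left and for slide columns 3-4 minus 1-2 on the right; points are limma estimates and bars 95% intervals. On the left only the Mlxip interval, 0.09 to 0.54, lies off 0, though its adjusted p was 1.00; on the right the brighter Txnip probe and both Arrdc4 probes lie below 0 and the dimmer Mlxipl probe and Mlxip above it, with 1 Arrdc4 probe past the adjusted threshold.

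Of the 7 measured markers of other cell types, 1 passed for the slide columns. Ppy, the pancreatic polypeptide gene of PP cells, had 1.28, 1.52 and 1.41 on columns 3-4 and 2.93, 2.97, 3.01 and 2.30 on columns 1-2 (difference -1.43, limma adjusted p = 0.0425). Sst, the somatostatin gene of delta cells, was at 4.18, 4.39 and 4.38 on columns 3-4 and at 3.78, 3.73, 3.66 and 4.00 on columns 1-2 (0.54, adjusted p = 0.0561). Cela2a differed by 0.43, Cd68 by 0.18, Gcg by 0.02, Irx2 by -0.01 and Itgam by -0.09, and none of these passed. The summed relative levels of the 12 beta-cell markers were 3196 to 3434 on columns 3-4 and 3559 to 4157 on columns 1-2. Those of the 7 measured markers of other cell types were 64.0 to 71.8 on columns 3-4 and 64.5 to 72.6 on columns 1-2. Such sums add probes that are not on 1 scale and follow the brightest ones. These were mostly Ins2, Ins1 and G6pc2 for beta cells, and Gcg, Sst and Itgam for the others. The part of the marker differences in the Txnip and Arrdc4 values was not tested.

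Txnip and Arrdc4 had high and low levels on the same arrays, but the relation did not pass the correction for the 4 pairs tested. Over the 7 arrays the brighter probes correlated at r = 0.79 (exact permutation p = 0.0587, adjusted p = 0.160) and rho = 0.86 (exact p = 0.0238, adjusted p = 0.0952). Without MPE replicates 4 and 1, the arrays farthest from the Txnip median, r was 0.63 (exact p = 0.225, n = 5). With the mean of each group taken off r was 0.79, and with the mean of slide columns 3-4 and of 1-2 taken off it was 0.25. The columns hold 3 and 4 arrays, too few for a correlation of their own. All exact p-values here and below permute the 7 arrays freely, although Txnip levels did not overlap between the columns. They therefore take no account of that split. The other Arrdc4 probe correlated with Txnip at r = 0.94 (exact p = 0.00536, adjusted p = 0.0214), and at 0.59 with the column means taken off. That probe was taken after its values were seen.

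Mlxipl tended to be low where Txnip was high, which did not pass the correction for its brighter probe. The brighter probe gave r = -0.68 (exact permutation p = 0.0800, adjusted p = 0.160) and rho = -0.71 (exact p = 0.0881, adjusted p = 0.176), and r was -0.64 (exact p = 0.275) without the 2 farthest arrays. With the group means taken off r was -0.76, and with the column means taken off it was 0.05. The other Mlxipl probe gave -0.86 (exact p = 0.0179, adjusted p = 0.0357), and -0.46 with the column means taken off. That probe, too, was taken after its values were seen. For Mlxip r was -0.40 (exact p = 0.351, adjusted p = 0.469) and rho was -0.29 (exact p = 0.556), with r = -0.35 (exact p = 0.633) without the 2 farthest arrays. For Mlx r was 0.02 (exact p = 0.969) and rho was -0.43 (exact p = 0.354), with r = 0.29 (exact p = 0.725) without the 2 farthest arrays. With the group means taken off r was -0.90 for Mlxip and 0.05 for Mlx, and with the column means taken off it was 0.67 for Mlxip and 0.04 for Mlx.

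**Figure D3:**
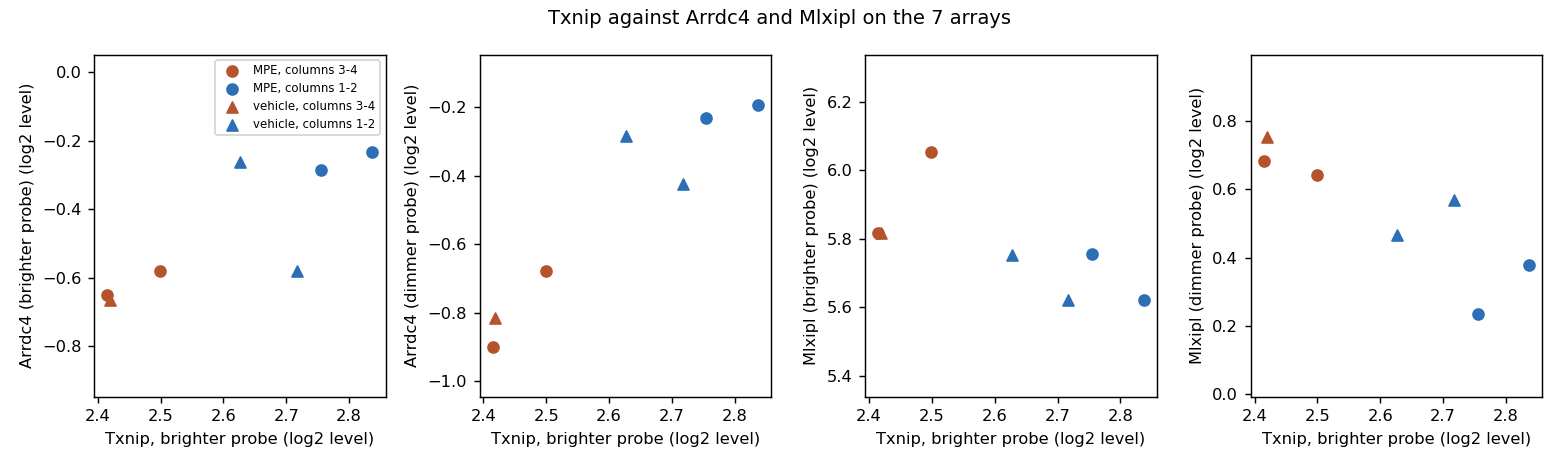
Log2 level of each probe of Arrdc4 and Mlxipl (vertical axes, each spanning 1 log2 unit) against that of the brighter Txnip probe (horizontal axes) on the 7 arrays; circles are MPE, triangles vehicle, and colours slide columns. The 3 arrays of columns 3-4 lie at Txnip levels of 2.42 to 2.50, below all 4 arrays of columns 1-2, with low Arrdc4 and high Mlxipl.

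The genes most like Txnip over the arrays were not members. Among 5697 genes with a symbol that were well above background on all 7 arrays and had an SD of at least 0.1, the 4 highest Pearson r with the brighter Txnip probe were those of Rasip1 (0.98), Zswim1 (0.98), Nr2c1 (0.97) and Cyp2j6 (0.97). With the mean of each group taken off they were those of Gstcd (0.99), Zswim1 (0.99), Mrpl30 (0.99), Rnf217 (0.98) and Cr1l (0.98). Arrdc4 ranked 452 by r over the 7 arrays and 846 with the group means taken off. None of these 8 genes passed for MPE in the limma fit. All 8 had lower levels on columns 3-4, with differences from -0.70 for Gstcd to -0.19 for Nr2c1. Gstcd (limma adjusted p = 0.0379) and Cr1l (adjusted p = 0.0448) passed in that comparison, as did 0.485% of all probes in that direction. The genes were ranked by likeness to Txnip, whose own levels did not overlap between the columns.

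For the genes around the axis, 6 lists were described beside the members. ChREBP and MondoA target genes outside the members had 20 of 24 genes tested, of which 6 were higher and 14 lower with MPE, with a median difference of -0.04, and none passed the test. Over all 13653 tested genes with a symbol, MPE means were higher for 5997 and lower for 7656, and the median difference was -0.01. The fatty acid synthesis enzymes Fasn and Acaca differed by -0.12 (SE 0.07) and -0.02 (SE 0.05), the citrate lyase Acly by -0.05 (SE 0.08), the desaturase Scd1 by 0.01 (SE 0.16) and the elongase Elovl6 by 0.03 (SE 0.07). The glucose-induced regulators Klf10 and Bhlhe40 differed by 0.13 (SE 0.11) and -0.07 (SE 0.25). Each of these had an adjusted p of 1.00. Pklr, the liver-type pyruvate kinase and classical ChREBP target, did not stand well above background on any array.

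The remaining lists gave no call for MPE either. In the MAX and MLX network, the bHLH-zip factors that share partners with MLX, 2 of 9 tested genes were higher and 7 lower (median -0.04), with Max at -0.06 (SE 0.09), Mxd4 at -0.03 (SE 0.10) and the MLX-binding repressor Mnt at -0.05 (SE 0.07). Among other arrestins 4 of 5 were higher (median 0.02), with Arrdc3 at 0.06 (SE 0.14) and Arrb1 at -0.01 (SE 0.06). In the thioredoxin list 5 of 12 were higher (median -0.02), with thioredoxin itself, Txn1, at 0.05 (SE 0.07), its reductase Txnrd1 at -0.05 (SE 0.06) and Itch, the ubiquitin ligase that degrades TXNIP, at 0.03 (SE 0.08).

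For glucose entry and glucose 6-phosphate, which ChREBP and MondoA sense, 3 of 9 tested genes were higher with MPE (median -0.02). The glucose transporter Slc2a1 differed by 0.11 (SE 0.12), Hk1 by -0.04 (SE 0.06) and the beta-cell glucose 6-phosphatase G6pc2 by -0.09 (SE 0.08). The probe of Slc2a2, the glucose transporter of mouse beta cells, reached that level above background on 0 of the 7 arrays. Of 17 regulators of ChREBP and MondoA, 5 were higher (median -0.01). The O-GlcNAc transferase Ogt, which modifies ChREBP, stood at 0.14 (SE 0.07), the 14-3-3 protein gene Ywhag, whose product holds the sensors in the cytoplasm, at -0.05 (SE 0.06), and sorcin (Sri), which binds ChREBP, at -0.01 (SE 0.05). In all, 72 of 82 listed genes were tested, 25 were higher and 47 lower, and none passed in limma, nor did any reach an unadjusted p of 0.05, which 84 of the 13653 genes with a symbol did in the higher and 287 in the lower direction.

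Between the slide columns none of the 72 genes passed the adjusted threshold, while 4 were higher and 16 lower at an unadjusted p under 0.05. Among all genes with a symbol 962 were higher and 1989 lower at that level, and 8064 of 13653 had lower means on columns 3-4, with a median of -0.03. Of the target genes 15 of 20 were lower (median -0.06), among them Bhlhe40 at -0.57 (SE 0.13, adjusted p = 0.0756), Scd1 at -0.35 (SE 0.10, adjusted p = 0.115) and Acly at -0.14 (SE 0.05, adjusted p = 0.181), while Klf10 was higher at 0.24 (SE 0.07, adjusted p = 0.112). The bHLH factor Bhlhe40 had 0.25, 0.18 and 0.37 on columns 3-4 and 0.85, 0.97, 1.00 and 0.53 on columns 1-2. All 9 genes of glucose entry and glucose 6-phosphate had lower means on columns 3-4, with a median of -0.10, and G6pc2 differed by -0.17 (SE 0.04, adjusted p = 0.0941). Arrdc3, an alpha-arrestin like Txnip and Arrdc4, differed in the other direction, at 0.33 (SE 0.07, adjusted p = 0.0628), and Max by -0.21 (SE 0.05, adjusted p = 0.0769).

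**Figure D4:**
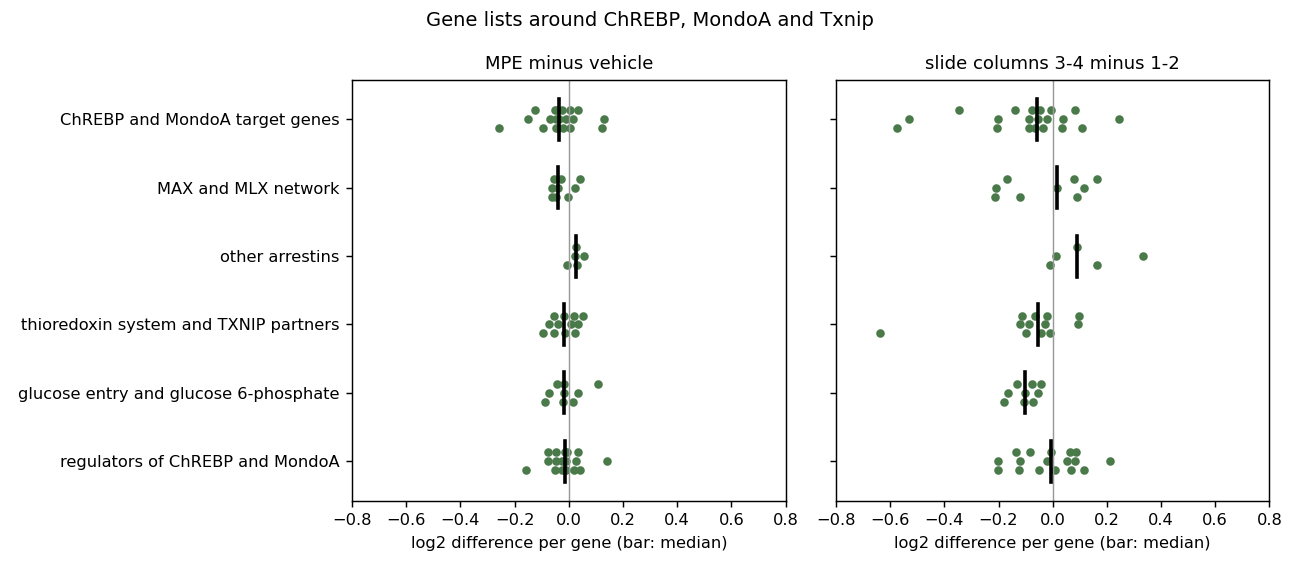
Log2 difference per gene (horizontal axes) in the 6 lists for MPE minus vehicle on the left and slide columns 3-4 minus 1-2 on the right; each point is the brightest probe of a gene and black bars are list medians. The MPE medians lie between -0.04 and 0.02, and no gene on either side passed the adjusted threshold.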

How the data were processed

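Per the labels' protocols, Cy3-labelled cRNA made from 100 ng of MIN6 RNA was read on Agilent arrays in 1 colour. The intensities in the deposited scanner output had been background-subtracted and detrended by Agilent Feature Extraction (11.5.1.1 per the file headers, 10.5.1.1 per the submitters' processing notes). The deposited flags mark controls, outliers, saturation and spots well above background. The authors' value table holds log2 values whose columns correlated at 0.9996 or more with their own array and all had a median of 4.438. How it was normalized is not stated, and it was used as an alternative.

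Log2 intensities, without 611 outlier values, were averaged per probe and reduced by each array's 75th percentile. The 28874 probes well above background on 3 or more arrays entered lmFit and eBayes (limma 3.58.1, R 4.3.3) with a treatment term alone, Benjamini-Hochberg adjusted at 0.05. The brighter probe of a gene is the one with the higher mean over the 7 arrays. Accessions were named through RefSeq (GRCm38.p6, names only), which gave 32994 probes a symbol. Correlations across the arrays used exact two-sided permutation tests, adjusted over 4 pairs. The fit was tested on simulated data with independent errors and no slide-column effect, so that test does not cover the columns. The arrays' number limits the precision.

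The genes named are the members, 24 genes named in any case, any probe with a symbol past the threshold, and the 5 genes most like Txnip by each of 2 measures, of which some are not reported here. Ppy, Sst, Itgam and other cell-type markers were named after their values were seen. The members, lists and tests were chosen with earlier results of these data known. The slide-column comparison, the correlations of other probes and those with column means taken off were added after the values were seen. Alternatives covered the scaling, background correction, filter, probe rule, variance model, array weights, blocks and left-out arrays.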

Additional observations from a re-analysis of the deposited data

How the results depend on the processing

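No member passed for MPE in any of 21 alternatives. The number of probes called, 3, became 1 with normexp (offset 50, run on median spot intensity, as mean spot intensity is not used here), 11899 with no filter on dim probes (11496 higher, 403 lower), 0 with a filter on all 7 arrays, 1 with 1 probe per gene, 5 with array weights, 0 with the slide column as a block, 1 with columns 3-4 against 1-2 as a block, and 0 to 4 with an array left out, the 0 being without vehicle replicate 1. With replicate numbers blocked (replicate block), where MPE replicate 4 has no partner and drops out, 0 probes were called, Txnip differed by 0.11 and Mlxip by 0.27, and no member's call changed. Same-numbered arrays deviated together at r of 0.24, 0.05 and 0.40, and differently numbered ones at r from -0.33 to 0.29. The labels do not say that the numbers pair the samples, and the main fit left them unpaired.

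The sign of Txnip turned with median scaling (-0.031) and with the mean of its probes (-0.048), and its difference ranged from -0.045 to 0.11 with an array left out, turning without MPE replicate 1, MPE replicate 2 or vehicle replicate 3. Arrdc4 turned with median scaling (-0.0050) and ranged from -0.017 to 0.19 with an array left out, turning without MPE replicate 1 or vehicle replicate 3, Mlxipl turned with the mean of its probes (-0.014), and Mlx turned with normexp (0.014) and ranged from -0.085 to 0.041, turning without vehicle replicate 2. Mlxip kept its direction in all 21. The cause was not tested.

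Between the slide columns the count of 452 became 1759 with median scaling, 1967 with normexp, 2 with no filter, 1565 with a filter on all 7 arrays, 3450 with a trended robust variance, 2056 with array weights, and 2 to 229 with an array left out, where each of the 7 omissions moved it by more than the margin allowed for a count. Mlx turned with median scaling (-0.072) and ranged from -0.030 to 0.054 with an array left out.

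For the correlations with Txnip, that of Mlx turned with quantile normalization (-0.11), the percentile over detected probes (-0.10) and the authors' value table (-0.11), and ranged from -0.58 to 0.21 with an array left out. With column means taken off, Mlxipl turned to 0.050 and Mlxip to 0.67. The other probes, taken after their values were seen, gave 0.94 for Arrdc4 and -0.86 for Mlxipl, both past the adjusted threshold. That permutation takes no account of the slide columns, and with column means taken off these values were 0.59 and -0.46. With an array left out Arrdc4 ranged from 0.70 to 0.93, past the threshold without vehicle replicate 1 (r = 0.87, adjusted p = 0.0111), Mlxipl from -0.83 to -0.57 and Mlxip from -0.59 to -0.14. The probe of Mlxip not well above background on any array was not tested.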
